A study of Rattus norvegicus with 21 samples.

Results

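Heat shock and chaperone genes were followed across 7 preparations of rat forebrain astrocytes. The 9 genes were Hspa1a, Hspa8, Hsp90aa1, Hsph1, Dnajb1, Hspb1, Hspb8, Cryab and Hspa5, taken from 14217 genes with a probe set of their own on the array. The list was chosen by gene family and selected on these same arrays. Intensities of Hspa1a and others were already known to vary between preparations, so inclusion is no result. For the same reason, the shares of all genes printed beside counts of members give scale only and test nothing about the list. The p-values of its members are likewise no independent support for the choice of list. A probe set is a group of short probes that reads 1 transcript. Probe sets whose only gene symbol was a member numbered 10, of 31042 on the array, and covered 7 of the 9 genes. Hspa8 and Hsp90aa1 had only probe sets shared with other genes and are given no value. Dnajb1, Hsph1 and Hspb8 had 2 probe sets each, and the one with the highest mean over all 21 arrays stands for the gene.

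The cells came from Sprague Dawley rats, and each preparation was measured on 3 arrays labelled as biological replicates. Astrocytes were isolated by immunopanning, which captures cells on a dish coated with an antibody, here against the integrin ITGB5. Panned cells taken straight to RNA at postnatal day 1 or 7 are called fresh P1 and fresh P7. Panned cells kept for 7 days with the growth factor HBEGF, at 5 ng/ml by the labels, are called HBEGF P1 and HBEGF P7. One label field of the HBEGF P7 samples names P1 culture, while their titles and source name P7, which was followed. MD astrocytes were prepared from P1 forebrain by the method of McCarthy and de Vellis and harvested after 7 days in 10% foetal calf serum. Serum P7 cells were panned P7 astrocytes cultured for 7 days in the same serum medium. Withdrawn P7 cells had those 7 days in serum, were washed, and then had 7 more days in base medium with HBEGF, so that they were in culture longer than any other group.

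Heat shock proteins are chaperones, which hold, refold or hand on other proteins. HSP70 proteins bind unfolded stretches in cycles of ATP hydrolysis with the help of J-domain and nucleotide exchange partners, small heat shock proteins hold unfolding proteins in large assemblies without ATP, and BiP serves as the HSP70 of the endoplasmic reticulum (ER). Heat shock factor switches on the cytosolic genes through repeats of a short element, and the unfolded protein response switches on BiP through an ER stress element. Small heat shock proteins are abundant in reactive astrocytes, and Cryab and Hspb1 are known from the Rosenthal fibres of Alexander disease.

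The promoters of the measured members with a match are shown, since they show which of these elements each carries next to its start. The RefSeq table of build GRCr8 held 300-base windows, 250 bases before to 50 after the start, for 7 of the 9 genes. Both strands were searched for the paired heat shock units GAANNTTC and TTCNNGAA, which overlap where units repeat, for a 3-unit run, which is TTCNNGAA followed by NNTTC, and for the ER stress element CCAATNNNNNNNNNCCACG. Among 33469 such windows, 15.9% held GAANNTTC or TTCNNGAA, 0.798% the 3-unit run and 0.0657% the ER stress element. Capitals mark these matches, and positions count from -1, the base before the start. The deposited values carry no coordinates, and nothing in these arrays measured binding.
Hspb1, chr12:26432302-26432461, minus strand: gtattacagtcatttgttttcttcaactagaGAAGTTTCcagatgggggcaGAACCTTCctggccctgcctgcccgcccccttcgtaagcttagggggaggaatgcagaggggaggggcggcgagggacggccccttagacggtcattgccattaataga
Hspb8, chr12:45837274-45837303, plus strand: agaagccaggaGAAGTTTCtaggcgcgtga
Hsph1, chr12:10427208-10427367, plus strand: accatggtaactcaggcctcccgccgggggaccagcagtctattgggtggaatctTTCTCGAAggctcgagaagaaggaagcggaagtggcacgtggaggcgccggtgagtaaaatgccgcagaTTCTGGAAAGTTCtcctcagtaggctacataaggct
Dnajb1, chr19:41431142-41431301, minus strand: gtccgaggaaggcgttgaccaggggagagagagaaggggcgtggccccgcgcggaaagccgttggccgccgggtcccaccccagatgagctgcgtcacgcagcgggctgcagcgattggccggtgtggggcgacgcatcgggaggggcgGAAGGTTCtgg
Hspa5, chr3:38452856-38453015, plus strand: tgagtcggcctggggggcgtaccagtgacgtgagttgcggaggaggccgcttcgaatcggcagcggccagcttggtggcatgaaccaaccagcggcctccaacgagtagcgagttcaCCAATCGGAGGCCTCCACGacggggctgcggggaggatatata

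Hspb1 had GAANNTTC at -129 to -122 and at -109 to -102, and Hspb8 had it at -23 to -16. Of Hspb8 only 30 bases are printed, since the table's start lies inside the annotated gene. Hsph1 had TTCNNGAA at -105 to -98 and the 3-unit run at -36 to -24, and Dnajb1 had GAANNTTC at -11 to -4 and again downstream of its start at 18 to 25. The ER stress element of Hspa5 lay at -43 to -25. Hspa8, which has no expression value here and is not printed, held the 3-unit run at -213 to -201 and again at -55 to -43. None of these letters were found in the Hspa1a window. Only 300 bases at the annotated start were searched, so elements outside that window or near another start would be missed. Hspb1 and Hsph1 lie on chromosome 12 with Hspb8, Dnajb1 on chromosome 19, Hspa5 on 3, Hspa1a on 20 (chr20:3859756-3863800) and Cryab on 8 (chr8:59989885-59995532).

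The deposited intensities had array medians of 128 to 146, and arrays of a group correlated at r = 0.955 to 0.996 over probe sets. The 7 astrocyte markers summed to between 15.61 and 16.85 on the log2 scale in every array, lowest in MD. Of 5 oligodendrocyte markers, Mog, Mag, Mobp and Opalin had group means between 4.39 and 5.77, while Mbp ran from 5.88 in withdrawn P7 to 9.18 in MD and 9.39 in HBEGF P1, and the list summed to 7.48 to 11.08. In bulk RNA, fewer cells of a type and less RNA per cell cannot be told apart. Replicate 2 of HBEGF P1 and replicate 2 of HBEGF P7 stood apart from their partners in the small heat shock genes. The mean of Hspb1, Hspb8 and Cryab was 8.85 in HBEGF P1 replicate 2 against 9.93 and 10.40, and 9.26 in HBEGF P7 replicate 2 against 10.69 and 11.60. Fibroblast markers summed to 12.66 in that P7 array against 14.58 and 14.60, but to 12.30 in that P1 array against 12.52 and 12.43. Oligodendrocyte markers summed to 7.79 in that P1 array against 10.66 and 11.08, but to 9.15 in that P7 array against 7.97 and 10.56. Microglial markers summed to 10.23 in HBEGF P7 replicate 3 against 8.24 and 8.16. The part of these cell types was not tested. Values without either replicate 2 array are given where they change a call. Intensities of different probe sets have no common scale, so levels are compared within a gene only.

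Hspa1a, the stress-inducible cytosolic HSP70, had the widest spread of the 7 measured members. Its log2 intensities were 13.18, 13.70 and 13.03 in fresh P7 and 9.42, 9.32 and 9.17 in fresh P1. In MD they were 8.54, 8.27 and 8.57, in serum P7 8.62, 8.52 and 8.23, and in withdrawn P7 8.57, 8.31 and 7.52. They were lowest in HBEGF P1 at 6.63, 6.30 and 6.93 and in HBEGF P7 at 7.02, 6.26 and 7.50. All 3 fresh P7 arrays were above every other array, and the fresh P1 arrays came next without overlap. MD, serum P7 and withdrawn P7 overlapped each other in that order, as did both HBEGF groups, and all arrays of the HBEGF groups lay below all arrays of the serum-exposed groups. Group means ran from 13.30 ± 0.35 (SD, n = 3) in fresh P7 to 6.62 ± 0.31 in HBEGF P1, a 102-fold range. The list was proposed with the fresh P1, fresh P7 and HBEGF P7 values of Hspa1a known. Its differences that involve those groups, such as 4.0 between the fresh groups and -6.38 between HBEGF P7 and fresh P7, are therefore descriptions without a test, and counts of called members leave it out there.

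Hspb1, a small heat shock protein that also binds actin, separated the groups by exposure to serum. It read 14.14, 14.22 and 14.41 in MD, 14.53, 14.29 and 14.06 in serum P7, and 13.97, 13.67 and 14.08 in withdrawn P7. Fresh P7 gave 11.61, 11.11 and 11.27 and fresh P1 gave 9.99, 10.12 and 10.34. The HBEGF cultures were lowest and most spread, with 9.06, 7.25 and 9.43 at P1 and 9.48, 7.46 and 10.40 at P7. All 9 arrays that had seen serum lay above all 12 that had not. Serum P7 and MD overlapped, as did fresh P1 and HBEGF P7, and both HBEGF groups. The range of means, from 14.29 ± 0.23 in serum P7 to 8.58 ± 1.17 in HBEGF P1, was 52.6-fold.

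Cryab, the alpha-B crystallin that co-assembles with other small heat shock proteins, was lowest in fresh P1 and highest in MD. Fresh P1 arrays read 9.36, 9.54 and 9.57 and fresh P7 arrays 11.69, 11.77 and 11.64. HBEGF P1 gave 11.90, 10.76 and 11.89 and HBEGF P7 gave 12.29, 11.64 and 12.84. MD read 14.72, 14.49 and 14.62, serum P7 14.09, 13.82 and 12.85, and withdrawn P7 13.60, 13.71 and 13.21. Fresh P1 and MD did not overlap their neighbours, and the other groups overlapped in a chain of fresh P7 with both HBEGF groups and of serum P7 with withdrawn P7. The means spanned 34.8-fold, from 9.49 ± 0.11 in fresh P1 to 14.61 ± 0.12 in MD.

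Hspb8, a small heat shock protein that works with the co-chaperone BAG3 in selective autophagy, had a narrower range of 8.99-fold. The 9 serum-exposed arrays were 11.72, 12.42 and 12.48 in MD, 11.89, 11.47 and 11.68 in serum P7, and 12.27, 12.28 and 12.22 in withdrawn P7. Fresh arrays read 8.86, 9.80 and 9.96 at P1 and 9.57, 9.55 and 9.18 at P7. HBEGF P1 gave 8.83, 8.55 and 9.89, and HBEGF P7 gave 10.29, 8.69 and 11.56. HBEGF P7 replicate 3 was the single array without serum that reached into the serum-exposed range. The fresh groups and HBEGF P1 overlapped one another.

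Dnajb1, the HSP40 that delivers clients to HSP70 and starts its ATPase cycle, stood high in fresh P7 alone. Its 3 arrays there read 12.32, 12.56 and 12.08, against 11.25, 11.23 and 11.25 in fresh P1 and 11.45, 11.41 and 11.50 in MD. The other groups were HBEGF P1 with 10.89, 11.04 and 10.73, HBEGF P7 with 10.75, 10.99 and 10.88, serum P7 with 10.72, 10.90 and 10.95, and withdrawn P7 with 10.84, 10.82 and 10.94. Those 4 groups overlapped, and fresh P7, MD and fresh P1 followed above them in that order without overlap. The means differed by at most 2.75-fold.

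Hsph1, the HSP110 that exchanges nucleotide on HSP70, was also highest in fresh P7, with 11.54, 12.67 and 12.46. Replicate 1 of that group was lower than its partners and lay below the MD values of 11.81, 11.62 and 11.72. Fresh P1 arrays were lowest as a group, at 10.55, 10.85 and 10.96. HBEGF P1 read 11.30, 11.52 and 11.45, HBEGF P7 11.37, 11.04 and 11.53, serum P7 11.25, 11.25 and 11.10, and withdrawn P7 11.17, 10.88 and 10.72. Apart from MD against HBEGF P1, every neighbouring pair of groups overlapped in the order of means, and the full range was 2.71-fold.

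Hspa5, or BiP, split the fresh cells from all cultures. It read 14.59, 14.75 and 14.72 in fresh P7 and 14.32, 14.37 and 14.29 in fresh P1. Every cultured array was lower, from 12.69 in HBEGF P1 replicate 1 to 13.33 in MD replicate 2. The cultured means were 13.25 ± 0.08 in MD, 13.16 ± 0.03 in withdrawn P7, 13.14 ± 0.07 in serum P7, 12.94 ± 0.06 in HBEGF P7 and 12.83 ± 0.13 in HBEGF P1. MD, withdrawn P7 and serum P7 overlapped, as did the HBEGF groups, and the 3 former lay above the latter without overlap. The range of means was 3.62-fold.

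**Figure D1:**
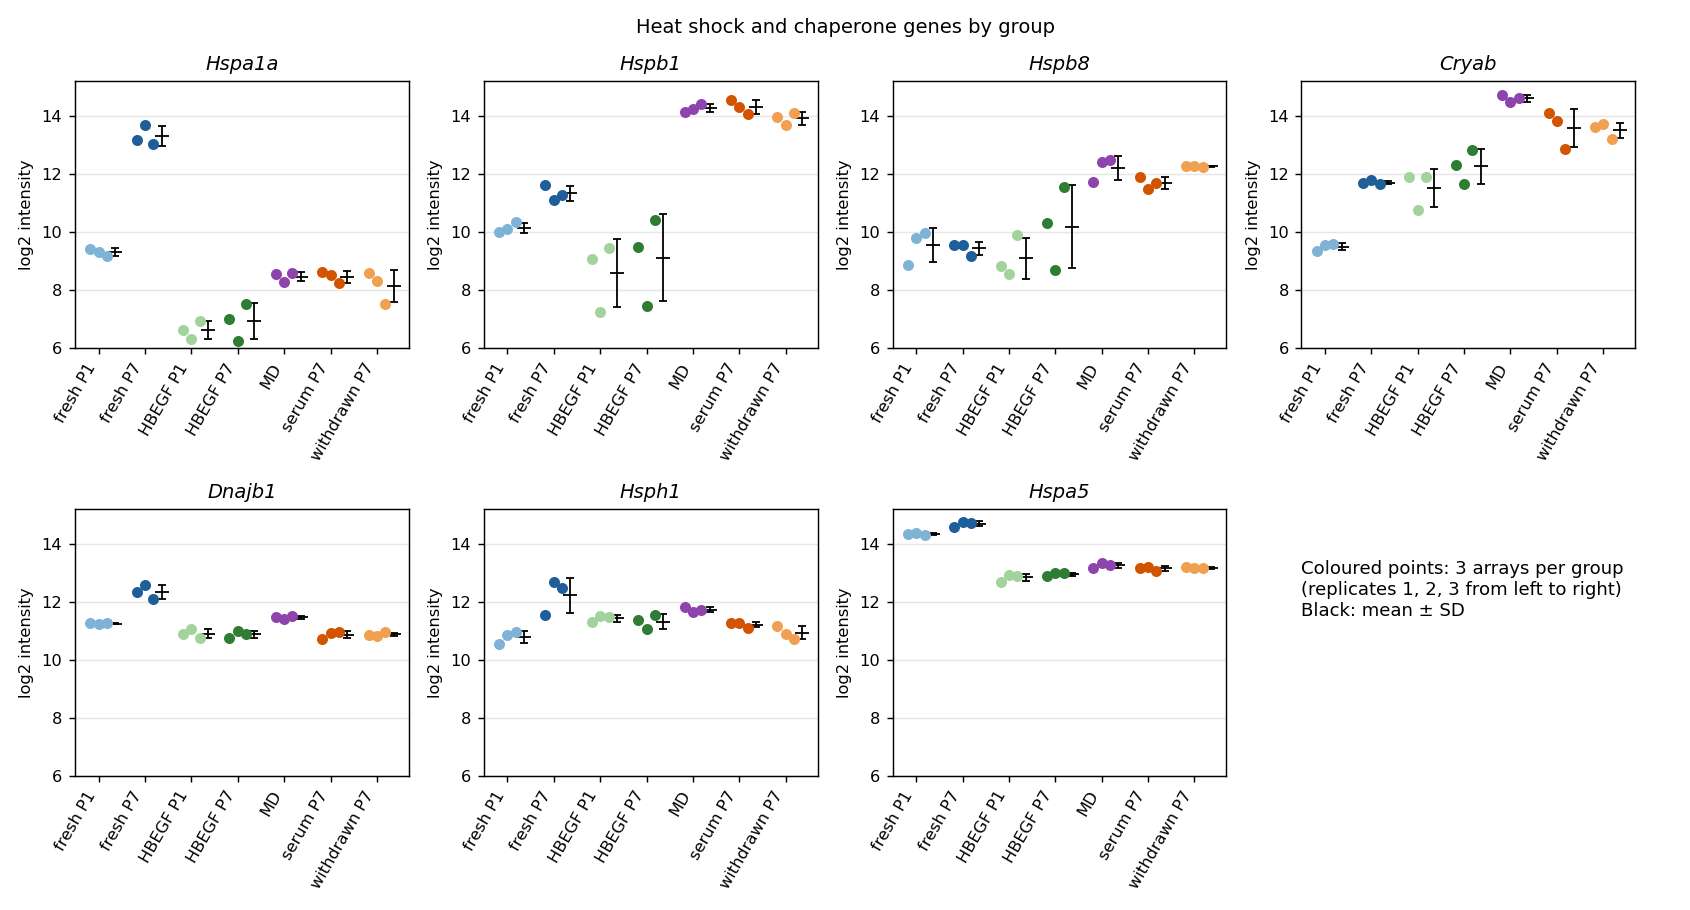
Log2 intensity (vertical axis) of the 7 measured members in the 7 groups (horizontal axis), with 1 coloured point per array in replicate order and the mean ± SD in black. Hspa1a peaks in fresh P7 at 13.03 to 13.70, Hspb1 is at 13.67 or more in every serum-exposed array, and Hspa5 is above 14.2 in fresh cells only.

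Between the fresh preparations, Cryab, Dnajb1 and Hsph1 rose from P1 to P7 along with the higher Hspa1a described above. A change was called at a limma adjusted p under 0.05 and at least 1 log2 unit. By that rule 3 of the 6 other members were higher and none lower in fresh P7, where 1.55% of all genes were called, 1.37% higher and 0.183% lower. Cryab rose by 2.21 ± 0.33 (SE, adjusted p = 0.00121), Hsph1 by 1.44 ± 0.22 (adjusted p = 0.00143) and Dnajb1 by 1.08 ± 0.12 (adjusted p = 7.03e-05). Hspa5 differed by 0.36 ± 0.09 (adjusted p = 0.0316), under the minimum fold. Hspb1 differed by 1.19 ± 0.55 with no overlap of arrays but missed the threshold (adjusted p = 0.279), and passed it when only these 6 arrays were fitted (adjusted p = 0.0169). Hspb8 differed by -0.11, with a 95% interval of -1.18 to 0.96. The median of these 6 was 1.13 and that of all genes -0.02. Without fresh P7 replicate 2, Dnajb1 fell just under the fold at 0.96.

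Markers of microglia, endothelium and neurons also differed between the fresh groups, and immediate-early genes were high in both. The 6 microglial markers summed to 9.39 to 10.36 in fresh P7 and 8.36 to 8.84 in fresh P1, on the log2 scale of summed intensity, and 2 of them were called higher, as were 2 of 7 astrocyte markers; Cx3cr1, Aif1 and Itgam had group means of 5.12 to 6.31 in both fresh groups. Endothelial markers went the other way, summing to at most 8.40 in fresh P7 and to 9.17 to 10.24 in fresh P1, and of 5 measured Cldn5 was called lower (-2.15, adjusted p = 0.000243). Neuronal markers summed to 10.33 to 10.75 in fresh P7 and 11.54 to 11.65 in fresh P1, and of 5 Gap43 was called lower (-1.33, adjusted p = 0.0473). The 13 immediate-early genes, such as Fos and Egr1, which respond within minutes to handling and many other stimuli, summed to 17.13 to 17.21 in fresh P1, 17.27 to 17.42 in fresh P7 and 13.39 to 14.46 in the cultures. None of the 13 was called between the fresh groups, 1 having an unadjusted limma p under 0.05. The part of these cells and of handling in the member values was not tested.

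After culture in HBEGF, P1 cells had less Hspa5 and more Cryab than fresh cells. In HBEGF P1 against fresh P1, Hspa5 fell by 1.49 ± 0.09 (adjusted p = 3.42e-09). Cryab rose by 2.03 ± 0.33 (adjusted p = 0.000282), and Hspa1a had a described difference of -2.68. The calls were 2 of the 6 other members, where 8.87% of all genes were called, 4.38% higher and 4.49% lower. Hspb1 differed by -1.57 ± 0.55 and was not called (adjusted p = 0.0562), but it was called with the replicate number as a block (adjusted p = 0.0255). Dnajb1 at -0.36 and Hsph1 at 0.63 passed the adjusted p (0.0396 and 0.0495) under the minimum fold, and Hspb8 differed by -0.45 (adjusted p = 0.633). Of 7 astrocyte markers Gfap (1.90) and S100b (1.07) were called higher, and Aldh1l1 (-1.50) and Slc1a2 (-1.43) lower. Markers of other cell types moved in the same comparison. Of 4 oligodendrocyte progenitor markers Pdgfra (3.68, adjusted p = 0.000826) and Sox10 (1.83, adjusted p = 1.29e-05) rose, and the list summed to 14.22 to 14.67 after 13.37 to 13.51. Of 5 endothelial markers Cldn5 (-4.26) and Kdr (-1.94) fell, with sums of 7.37 to 7.44 after 9.17 to 10.24, and of 4 mural markers Rgs5 (-3.35) fell. Their part was not tested.

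In P7 cells Hspb1, Dnajb1 and Hspa5 fell between the fresh state and HBEGF culture, beside the -6.38 of Hspa1a. Against fresh P7, HBEGF P7 had 3 of the 6 other members lower and none higher, where 10.3% of all genes were called, 4.78% higher and 5.51% lower. Hspa5 fell by 1.75 ± 0.09 (adjusted p = 3.64e-10) and Dnajb1 fell by 1.45 ± 0.12 (adjusted p = 1.38e-07). Hspb1 fell by 2.22 ± 0.55 (adjusted p = 0.00739), a call lost when only these 6 arrays were fitted (adjusted p = 0.0853). Hsph1 differed by -0.91 ± 0.22 (adjusted p = 0.00547), just under the fold, Cryab by 0.56 (95% interval -0.14 to 1.25) and Hspb8 by 0.75 (-0.32 to 1.82). Without HBEGF P7 replicate 2, Hspb8 was called at 1.49 (adjusted p = 0.0129), and without fresh P7 replicate 1, Hsph1 was called at -1.25. Of 7 astrocyte markers Slc1a2 (-3.30) and Aldh1l1 (-1.55) were called lower, and the rest were not called. Here too other cells' markers moved. Of 6 microglial markers P2ry12 (-2.02) and Csf1r (-1.81), of 5 endothelial Cldn5 (-1.74), and of 4 mural Rgs5 (-3.40) and Pdgfrb (-1.02) were called lower. Of 4 oligodendrocyte progenitor markers Pdgfra (2.07), and of 5 neuronal Stmn2 (3.08) and Gap43 (1.07), were called higher. The other markers of these lists were not called, among them Tek (0.74), Aif1 (0.20), Cspg4 (-0.07) and Snap25 (-0.62). Microglial sums were 8.16 to 10.23 in HBEGF P7, which overlapped fresh P7, and mural sums were 8.21 to 8.81 against 9.66 to 10.41, which did not. Their part was not tested.

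The change from fresh to HBEGF cells differed between ages for both HSP70 partners, whose levels differed between the fresh groups and overlapped after culture. The change of Dnajb1 was -1.45 at P7 and -0.36 at P1, a difference of -1.09 ± 0.16 (adjusted p = 0.00351). Hsph1 changed by -0.91 at P7 and by 0.63 at P1, a difference of -1.55 ± 0.31 (adjusted p = 0.0257). Hspa1a had responses of -6.38 and -2.68, a described difference of -3.70. Dnajb1 and Hsph1 were the 2 of 6 tested members called in the difference, where 0.816% of all genes were called, 0.162% higher and 0.654% lower. The Hsph1 call was lost without any 1 of fresh P1 replicates 1 and 2, fresh P7 replicates 2 and 3 and HBEGF P1 replicate 2 (adjusted p = 0.0538 to 0.0745), and with only the 4 groups' arrays fitted (adjusted p = 0.118). Dnajb1 moved to -0.97 without fresh P7 replicate 2, which left no member called. Neither second probe set was called, at -1.27 (adjusted p = 0.288) for Dnajb1 and -1.82 (adjusted p = 0.109) for Hsph1. The difference is a contrast of 4 groups and shares arrays with the comparisons above. Most of it was the gap between the fresh groups. Dnajb1 means were 11.24 in fresh P1 and 12.32 in fresh P7, but 10.89 in HBEGF P1 and 10.87 in HBEGF P7. Hsph1 means were 10.79 and 12.22 in the fresh groups and 11.42 and 11.31 in the HBEGF groups, in the same order.

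No member was called between ages after 7 days in HBEGF. In HBEGF P7 against HBEGF P1, none of the 6 tested was called by limma, 2 having an unadjusted p under 0.05, and 1.11% of all genes were called, 0.753% higher and 0.359% lower. The differences ran from -0.11 for Hsph1 (95% interval -0.57 to 0.35) to 1.09 for Hspb8 (0.02 to 2.16). Hspa5 differed by 0.10 (-0.08 to 0.29), and Hspa1a had a described difference of 0.30. Same-numbered arrays of these groups deviated together (r = 0.44, 0.477 and 0.588), and within those pairs the small heat shock genes were higher at P7 in 3 of 3. The paired differences were 0.42, 0.21 and 0.97 for Hspb1, 1.47, 0.14 and 1.67 for Hspb8 and 0.39, 0.88 and 0.95 for Cryab. With the replicate number as a block their adjusted p remained over the threshold, at 0.733, 0.332 and 0.353. That block was shared by all 7 groups, so it is not a paired test of these pairs. Without HBEGF P7 replicate 2, Hspb8 was called at 1.84 (adjusted p = 0.0254).

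**Figure D2:**
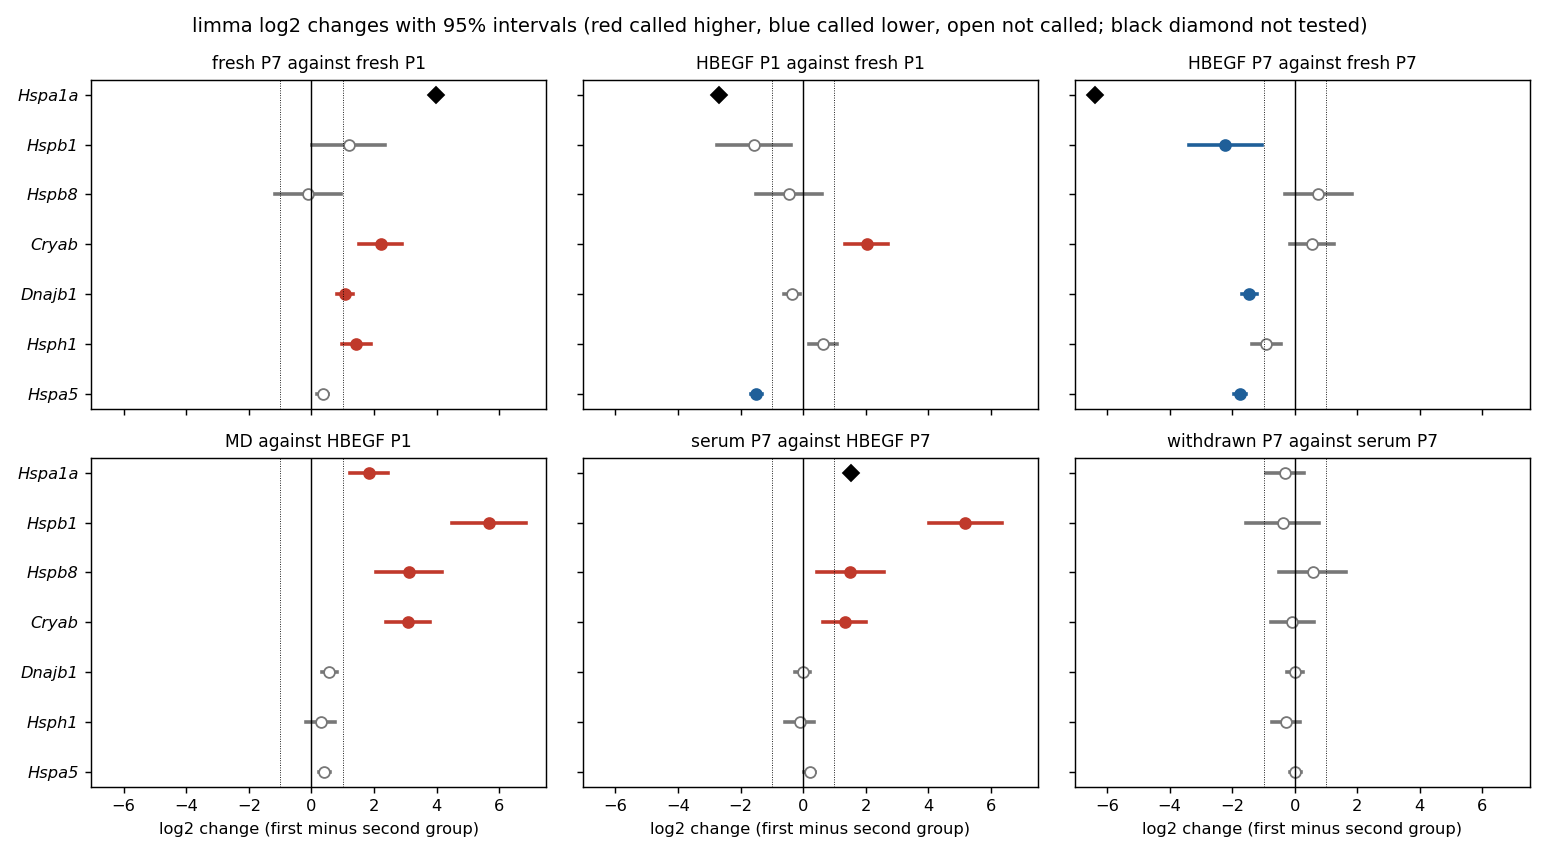
Log2 change (horizontal axis, first minus second group) of each member in 6 comparisons, as limma estimates with 95% intervals; red marks called higher, blue called lower, open points not called, black diamonds the Hspa1a differences given without a test, and dotted lines 1 log2 unit. The 3 small heat shock genes lie right of the line in both comparisons of serum with HBEGF, and all 7 members' intervals include 0 in withdrawn P7 against serum P7.

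All 3 small heat shock genes were higher in serum cultures than in HBEGF cultures. In MD against HBEGF P1, Hspb1 rose by 5.68 ± 0.55 (adjusted p = 6.95e-07), or 51.2-fold, Hspb8 by 3.12 ± 0.51 (adjusted p = 0.000121), Cryab by 3.09 ± 0.33 (adjusted p = 1.62e-06) and Hspa1a by 1.84 ± 0.29 (adjusted p = 8.73e-05). These 4 of 7 members stood where 18.4% of all genes were called, 8.81% higher and 9.57% lower. Dnajb1 at 0.57 and Hspa5 at 0.42 passed the adjusted p (0.000969 and 0.00117) under the minimum fold, and Hsph1 differed by 0.30 (-0.16 to 0.76). MD and HBEGF P1 cells differ in isolation as well as in medium, and these cannot be told apart here. Cell type markers moved as well. Of 7 astrocyte markers Aldh1l1 (-2.35) and Aqp4 (-1.41) were called lower. So were Pdgfra (-5.49) and Sox10 (-1.60) of 4 oligodendrocyte progenitor markers. Lower too were Rbfox3 (-2.80) and Snap25 (-1.45) of 5 neuronal markers, and Pdgfrb (-1.52) of 4 mural markers. The other markers of these lists were not called, and their part was not tested.

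Panned P7 cells, which share one isolation, had the same 3 small heat shock genes called. In serum P7 against HBEGF P7, Hspb1 rose by 5.18 ± 0.55 (adjusted p = 8.99e-06), or 36.3-fold, Hspb8 by 1.50 ± 0.51 (adjusted p = 0.0438) and Cryab by 1.33 ± 0.33 (adjusted p = 0.0085), and Hspa1a had a described difference of 1.53. The calls were 3 of 6 tested members, where 9.3% of all genes were called, 4.83% higher and 4.47% lower. The Hspb8 arrays of both groups overlapped, and its call was lost without any 1 of HBEGF P7 replicates 1 and 2 or of the 3 serum P7 arrays (adjusted p = 0.0751 to 0.222). With only the 6 arrays fitted, Hspb8 (adjusted p = 0.213) and Cryab (adjusted p = 0.105) were not called. Hspa5 differed by 0.21 (adjusted p = 0.107), Dnajb1 by -0.01 (-0.26 to 0.23) and Hsph1 by -0.11 (-0.57 to 0.35). Of 7 astrocyte markers S100b (-1.16), and of 5 neuronal Gap43 (-2.29), Snap25 (-1.61) and Rbfox3 (-1.52), were called lower. Of 5 endothelial markers Kdr (2.61), and of 4 mural Pdgfrb (1.37), were called higher. The other markers of these lists were not called, and their part was not tested.

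Cryab rose less in serum P7 over HBEGF P7 than in MD over HBEGF P1. MD cells differ from HBEGF P1 in isolation as well as medium, and the comparisons differ in starting age. What is called the difference between serum responses below thus does not isolate serum. Its change was 1.33 in serum P7 against HBEGF P7 and 3.09 in MD against HBEGF P1, a difference of -1.76 ± 0.47 (adjusted p = 0.0178), lost with only the 4 groups' arrays fitted (adjusted p = 0.0829). It was the 1 of 6 tested members called in that difference, where 11.3% of all genes were called, 5.02% higher and 6.29% lower. Dnajb1 differed by -0.58 (adjusted p = 0.0267), under the fold. Hspb8 differed by -1.62 (adjusted p = 0.163), and by -2.36 without HBEGF P7 replicate 2 (adjusted p = 0.01). Hspb1 differed by -0.50 (-2.15 to 1.16). In serum P7 against MD directly, Cryab was likewise the 1 member called, at -1.02 ± 0.33 (adjusted p = 0.029), where 13.9% of all genes were called, 7.58% higher and 6.37% lower. That call was lost without MD replicate 1, MD replicate 3 or serum P7 replicate 3, with -0.65 without the last.

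Fibroblast and meningeal markers were higher with serum in the panned cells and mostly lower in MD. The 5 markers summed to 15.52 to 16.03 in serum P7, 15.21 to 15.81 in withdrawn P7 and 12.66 to 14.60 in HBEGF P7, and 4 of 5 were called higher in serum P7 than in HBEGF P7. In MD they summed to 12.36 to 12.65, against 12.30 to 12.52 in HBEGF P1, with 4 of 5 called lower and 1 higher. Lum (-4.70), Dcn (-4.28), Col3a1 (-3.69) and Col1a1 (-1.31) were the lower ones in MD, and Col1a2 (1.59, adjusted p = 0.00367) the higher one. The part of fibroblasts in the small heat shock values was not tested.

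**Figure D3:**
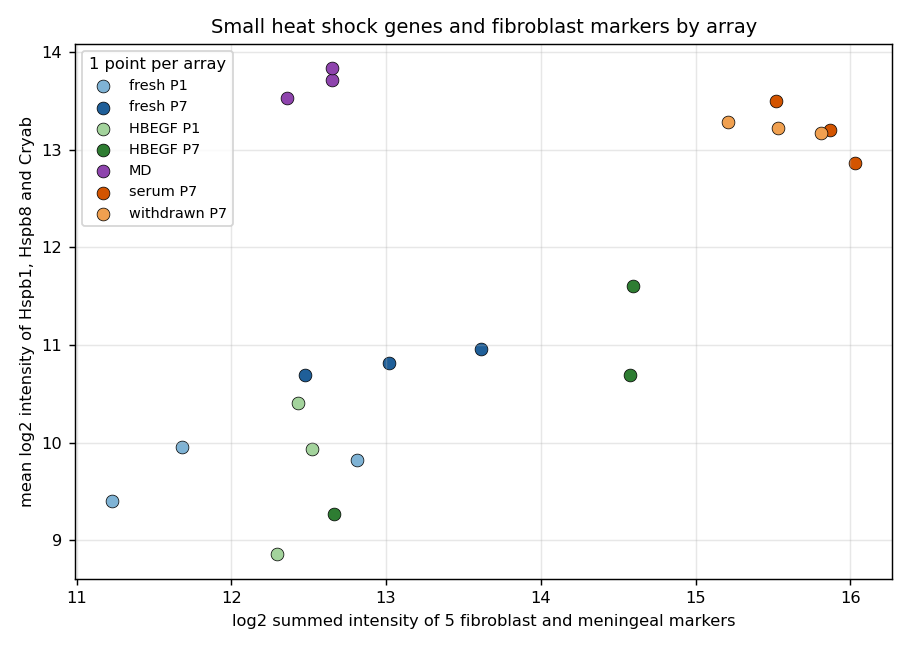
Mean log2 intensity of Hspb1, Hspb8 and Cryab (vertical axis) against the log2 of the summed intensity of 5 fibroblast and meningeal markers (horizontal axis), 1 point per array coloured by group. The MD arrays combine a high small heat shock mean with marker sums of 12.36 to 12.65, and replicate 2 of each HBEGF group is the lowest of its group at 8.85 and 9.26.

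Against fresh cells, the small heat shock genes were higher and Hspa5 lower in both serum cultures. In MD against fresh P1, Cryab rose by 5.12 ± 0.33 (adjusted p = 4.38e-09), Hspb1 by 4.11 ± 0.55 (adjusted p = 1.64e-05) and Hspb8 by 2.67 ± 0.51 (adjusted p = 0.000463). Hspa5 fell by 1.08 ± 0.09 (adjusted p = 5.63e-08). These were 4 of 6 tested members, where 19.6% of all genes were called, 10.1% higher and 9.43% lower. Hsph1 at 0.93 passed the adjusted p (0.00264) under the fold and reached 1.02 without fresh P1 replicate 3, and Hspa1a had a described difference of -0.84.

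In serum P7 against fresh P7 all 6 tested members were called, where 18.2% of all genes were, 9.12% higher and 9.04% lower. Hspb1 rose by 2.96 ± 0.55 (adjusted p = 0.000449), Hspb8 by 2.25 ± 0.51 (adjusted p = 0.00208) and Cryab by 1.88 ± 0.33 (adjusted p = 0.000236). Hspa5 fell by 1.55 ± 0.09 (adjusted p = 1.18e-09), Dnajb1 by 1.46 ± 0.12 (adjusted p = 5.78e-08) and Hsph1 by 1.02 ± 0.22 (adjusted p = 0.00133), and Hspa1a had a described difference of -4.85. These fresh P7 arrays also enter the HBEGF P7 comparison, so a shared direction of the falls rests partly on the same 3 arrays. Hsph1 slipped under the fold without fresh P7 replicate 2 (-0.80), fresh P7 replicate 3 (-0.90) or serum P7 replicate 3 (-0.97).

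No member was called after withdrawal of serum. In withdrawn P7 against serum P7, limma called 0 of 7 members, and 0 had an unadjusted p under 0.05, while 4.5% of all genes were called, 2.24% higher and 2.26% lower. Hspb1 differed by -0.39 (95% interval -1.56 to 0.78), Cryab by -0.08 (-0.77 to 0.62), Hspb8 by 0.58 (-0.49 to 1.65) and Hspa1a by -0.32 (-0.93 to 0.28). For Hspb1 and Cryab these intervals end short of the HBEGF P7 mean, which lay 5.18 and 1.33 below serum P7 with errors of its own. Dnajb1 differed by 0.01 (-0.24 to 0.25), Hspa5 by 0.02 (-0.17 to 0.20) and Hsph1 by -0.28 (-0.74 to 0.18).

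Withdrawn P7 cells were also set against HBEGF P7 and fresh P7 in turn. Over HBEGF P7, Hspb1 rose by 4.80 ± 0.55 (adjusted p = 2.58e-05), Hspb8 by 2.08 ± 0.51 (adjusted p = 0.00697), and Cryab by 1.25 ± 0.33 (adjusted p = 0.0111), 3 of 6 tested members where 11.7% of all genes were called, 6.29% higher and 5.42% lower. Hspa1a had a described difference of 1.21. The Cryab call was lost without HBEGF P7 replicate 2, at 0.94. Fitting the 6 arrays alone left 1 call. Against fresh P7 all 6 tested members were called, where 22.1% of all genes were, 11.1% higher and 11.1% lower. Hspb1 was higher by 2.58, Hspb8 by 2.83 and Cryab by 1.81, and Hspa5 differed by -1.53, Dnajb1 by -1.45 and Hsph1 by -1.30 (adjusted p = 1.06e-09 to 0.00121 over the 6), beside a described -5.17 of Hspa1a. Microglial markers summed to 9.83 to 11.32 in withdrawn P7, against 8.23 to 8.51 in serum P7, and their part was not tested.

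The wider chaperone system was read from lists of 75 further measured chaperone, heat shock factor and related stress genes, called listed chaperone genes for short. List names are broad labels. The list labelled inducible cytosolic also holds Hspd1, Hspe1, Serpinh1 and Hmox1, whose proteins lie in mitochondria or the ER. Not all of its genes are heat-inducible, Hsp90ab1 for one. Hmox1, and Atf4 and Ddit3 of the ER list, encode no chaperone. Hsbp1 of the heat shock factor list encodes no heat shock factor. In fresh P7 against fresh P1, 1 of the 15 genes labelled inducible cytosolic was called, the HSP40 gene Dnajb4, which rose by 1.41 ± 0.20 (adjusted p = 0.000865). None of the 15 co-chaperones, 6 small heat shock proteins, 21 ER genes and 6 mitochondrial chaperones was called, with 5, 2, 5 and 0 at an unadjusted limma p under 0.05. The medians were 0.18 for the inducible cytosolic list, -0.35 for co-chaperones and 0.08 for ER genes, against -0.02 for all genes. The 8 subunits of TRiC, the chaperonin that folds actin and tubulin, had a median of -0.37, and 7 of 8 had an unadjusted p under 0.05 although none was called. TRiC subunits and the 4 genes of the heat shock factor list were called in 0 of the 14 comparisons by limma. They had 0 to 7 and 0 to 4 at an unadjusted p under 0.05.

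Some ER genes fell in HBEGF culture. In HBEGF P7 against fresh P7, 5 of 21 fell and none rose, where 5.51% of all genes were called lower, with a median of -0.59 against 0.07 for all genes. They were the stress-response gene Herpud1 (-1.36, adjusted p = 0.00318), the BiP co-chaperone Dnajb9 (-1.18, adjusted p = 1.05e-05), the transcription factors Atf4 (-1.17, adjusted p = 8.68e-05) and Ddit3 (-1.17, adjusted p = 0.000565), and the ER HSP90 gene Hsp90b1 (-1.03, adjusted p = 1.65e-06). Hsp90b1 fell under the fold without fresh P7 replicate 3 (-0.96) or HBEGF P7 replicate 1 (-0.99). In HBEGF P1 against fresh P1, 3 of 21 fell, where 4.49% of all genes did, with a median of -0.53 against 0.03, namely Dnajc3 (-1.32), Sdf2l1 (-1.32) and Atf4 (-1.10). All 13 immediate-early genes fell in both comparisons, with medians of -3.92 at P1 and -3.95 at P7.

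Among genes of the list labelled inducible cytosolic the direction was mixed in HBEGF culture. Dnajb4 fell by 1.64 ± 0.20 on the log2 scale in HBEGF P7 against fresh P7 (adjusted p = 1.60e-05), and the haem oxygenase gene Hmox1 rose by 1.43 (adjusted p = 0.00541), or 0.96 without HBEGF P7 replicate 2. In the P1 cells Hmox1 rose by 1.53 (adjusted p = 0.00377) and the HSP90 partner Chordc1 by 1.26 (adjusted p = 2.13e-06). Of the co-chaperones, the HSP90 immunophilin Fkbp5, a glucocorticoid-induced gene, rose by 1.24 in HBEGF P7 against fresh P7 (adjusted p = 0.00129), or 0.97 without fresh P7 replicate 2.

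In MD against HBEGF P1, 13 of the 75 listed chaperone genes rose and none fell, or 17.3% higher against 8.81% of all genes. Of all genes 9.57% were called lower there. Of 21 ER genes 6 rose, led by the BiP co-chaperone Dnajc3 (1.94, adjusted p = 2.23e-06), Sdf2l1 (1.60, adjusted p = 1.24e-05), Creld2 (1.24, adjusted p = 0.000106) and Dnajb11 (1.17, adjusted p = 2.10e-06), and the list median was 0.77 against 0.09 for all genes. Hyou1 and Ddit3, the other 2, were at 1.01 and 1.07 and fell under the fold without some single arrays, Hyou1 without MD replicate 3, HBEGF P1 replicate 1 or HBEGF P1 replicate 3 and Ddit3 without HBEGF P1 replicate 2. Of the co-chaperones Fkbp5 rose by 3.24 ± 0.24 (adjusted p = 4.82e-08) and Bag2 by 2.17 ± 0.17 (adjusted p = 6.26e-08). The small heat shock genes Hspb6 (1.65, adjusted p = 6.33e-06) and Hspb2 (1.30, adjusted p = 2.58e-05) rose beside the 3 small heat shock members. Hmox1 (1.65), Hspa2 (1.22) and Dnajb5 (1.19) were the 3 genes called of the list labelled inducible cytosolic. Hspa2 was at 0.92 without MD replicate 2.

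Set against fresh cells, both serum cultures had a share of listed chaperone genes higher that was near that of all genes. In MD against fresh P1, 10 of 75 rose and none fell, or 13.3% higher against 10.1% of all genes. Of all genes 9.43% were called lower there. They included Hmox1 (3.18, adjusted p = 1.39e-06), Chordc1 (2.11, adjusted p = 1.63e-09), Hspa2 (1.81, adjusted p = 0.000314), Fkbp5 (2.91, adjusted p = 9.01e-08), Bag2 (2.65, adjusted p = 3.92e-09) and Hspb6 (2.01, adjusted p = 5.82e-07). No ER gene was called there by limma, 10 of 21 having an unadjusted p under 0.05, while Hspa5 fell. In serum P7 against fresh P7, 9 listed genes rose, or 12% against 9.12% of all genes, with Fkbp5 at 4.19 (adjusted p = 1.72e-09), Hmox1 at 2.41 (adjusted p = 3.07e-05), Hspb6 at 1.83 (adjusted p = 1.87e-06) and Hspb2 at 1.41 (adjusted p = 1.09e-05). In the same comparison 5 of 21 ER genes fell, where 9.04% of all genes were called lower. Over all 75 listed genes the share lower was 6.67%. Of the ER genes, Ddit3 (-1.82, adjusted p = 3.34e-06), Herpud1 (-1.76, adjusted p = 0.000190), Atf4 (-1.54, adjusted p = 2.29e-06) and Dnajb9 (-1.07, adjusted p = 1.26e-05) had the largest changes. The ER list median was 0.13 in the MD comparison and -0.37 in the serum P7 comparison, against 0.11 and 0.07 for all genes.

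In the panned P7 cells 4 of 75 listed chaperone genes rose with serum and none fell. The 5.33% higher was near the 4.83% of all genes, of which 4.47% were called lower. Serum P7 against HBEGF P7 had Fkbp5 higher by 2.95 ± 0.24 (adjusted p = 7.87e-07), Hspb6 by 1.33 ± 0.20 (adjusted p = 2.00e-04), Dnajb4 by 1.14 ± 0.20 (adjusted p = 0.000735) and Hspa2 by 1.04 ± 0.33 (adjusted p = 0.0329). Dnajb4 was at 0.95 and Hspa2 at 0.72 without HBEGF P7 replicate 2, and Hspa2 was also lost without HBEGF P7 replicate 1, serum P7 replicate 1 or serum P7 replicate 2. No ER gene was called by limma, 13 of 21 having an unadjusted p under 0.05, with a list median of 0.32. In the test of the difference between both serum responses, 5 of 21 ER genes were called lower in the panned cells and none higher, where 6.29% of all genes were called lower and 5.02% higher, with a median of -0.40 against -0.05.

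After withdrawal of serum, 4 of 75 listed chaperone genes fell and none rose, or 5.33% lower against 2.26% of all genes. Of all genes 2.24% were called higher there. Fkbp5 fell by 1.31 ± 0.24 on the log2 scale (adjusted p = 0.00400) and Hspb6 by 1.07 ± 0.20 (adjusted p = 0.00386), and Hspb6 was at -0.96 without serum P7 replicate 1 and at -0.999 without withdrawn P7 replicate 3. Dnajb5 (-1.26, adjusted p = 0.0242) and Hmox1 (-1.20, adjusted p = 0.0411) were called as well but were each lost without any of 5 single arrays. Hspb6 averaged 9.95 ± 0.34 in HBEGF P7, 11.29 ± 0.28 in serum P7 and 10.21 ± 0.13 in withdrawn P7. Fkbp5 averaged 8.98 ± 0.45, 11.93 ± 0.09 and 10.62 ± 0.36 in the same order and stayed 1.64 above HBEGF P7 (adjusted p = 0.000216).

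**Figure D4:**
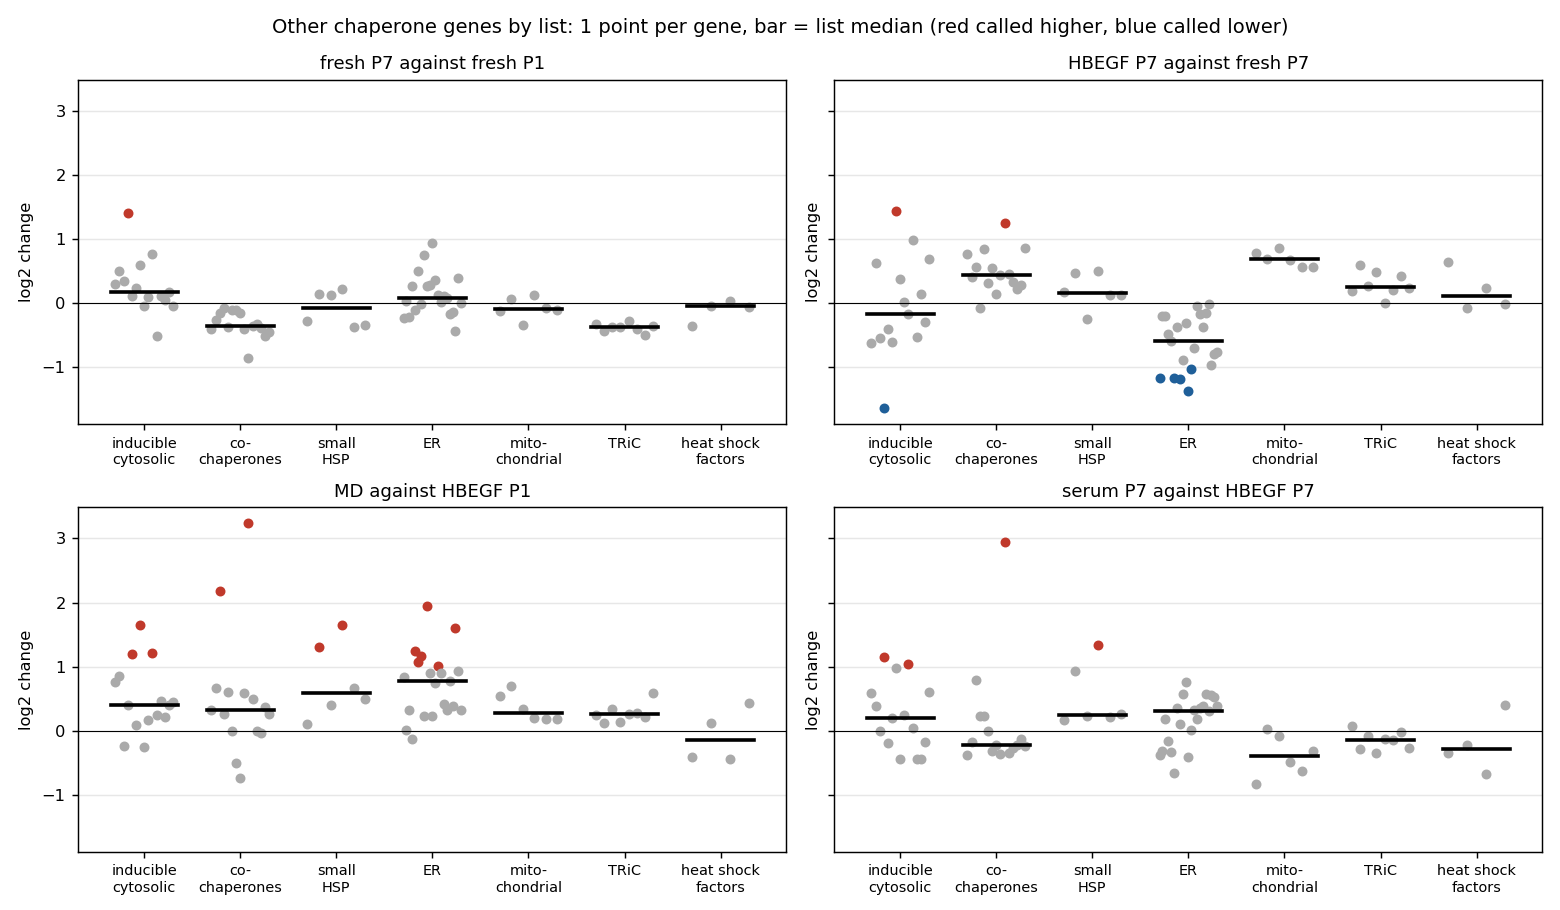
Log2 change (vertical axis) of every measured gene of 7 chaperone lists (horizontal axis) in 4 comparisons, 1 point per gene with the list median as a bar, red called higher and blue called lower. In HBEGF P7 against fresh P7 the 5 called ER genes are all lower, and in MD against HBEGF P1 the 13 called genes are all higher.

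The members fell into sets by pattern over the 21 arrays. Pearson correlations, which rest on shared arrays and groups and are given as descriptions, were 0.89 between Hspa1a and Hspa5 and between Hspa1a and Dnajb1, 0.88 between Hspb1 and Hspb8, 0.81 between Hspb8 and Cryab, and -0.52 between Cryab and Hspa5. Of all genes, those most like Hspa1a were Rasl11b (r = 0.97), Sez6l (0.94) and the ER gene Dnajb9 (0.93). Those most like Hspa5 were Junb (0.98), Gli1 (0.98) and Dio2 (0.97), and those most like Dnajb1 were Fut9 (0.91), Sez6l (0.90) and Gbx2 (0.90). Hspb1 was most like Kdelr3 (0.93), Il6r (0.93) and Ehbp1l1 (0.92), Hspb8 like Prss23 (0.95), Ociad2 (0.95) and Tmem248 (0.95), and Cryab like Ccdc9b (0.97), S100a4 (0.95) and Tmbim1 (0.94). Hsph1 had no gene above 0.81, the value of Slc15a4, followed by Hr (0.79) and Golga4 (0.77).

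The second probe sets followed the first in most comparisons. Over the 21 arrays they correlated at 0.85 for Dnajb1, 0.94 for Hsph1 and 0.95 for Hspb8, and had the same sign in 11, 13 and 14 of 14 comparisons. No comparison was called in opposite directions. The second Dnajb1 probe set was called where the first was not in HBEGF P1 against fresh P1 (-1.27, adjusted p = 0.0147) and in MD against HBEGF P1 (1.24, adjusted p = 0.00984), and it was not called in fresh P7 against fresh P1 (1.06, adjusted p = 0.113). The second Hsph1 probe set rose by 1.74 in that comparison (adjusted p = 0.0117). The second Hspb8 probe set differed by 2.15 in serum P7 against HBEGF P7 (adjusted p = 0.0967).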

How the data were processed

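RNA from 21 samples, 7 groups of 3, was hybridised to Affymetrix rat genome arrays. The authors deposited 1 intensity per probe set and array, summarised with RMA per the submitters' processing notes. The program, its version and its chip definition were not given in the sources used here. Values as deposited were linear intensities, from 10.0 to 37801, and their log2 was taken here. RMA removes shifts that affect all probe sets of an array, so changes are relative to the other genes. Of 31042 probe sets, 20826 had 1 gene symbol, 436 several and 9780 none in the platform annotation.

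One limma model (3.58.1, in R 4.3.3) of 7 group means was fitted to all probe sets, with 14 residual and 2.89 prior degrees of freedom and Benjamini-Hochberg adjustment over all 31042. It was tested on simulated data. Genes were called at an adjusted p under 0.05 with a change of 1 log2 unit or more. An exact permutation test of 3 against 3 arrays cannot go below p = 0.1 and was not used. Where nothing but the word biological separates replicates, p-values measure the spread between these samples.

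The 9 members and the lists were chosen with earlier results of these data known, and Hspa1a was not tested in comparisons with groups whose Hspa1a values were among them. All members, up to 4 called genes per list with the largest change, and the 3 most correlated genes per member are named; where a paragraph lists further called genes, they were added after their values were seen. Same-numbered samples correlated above 0.1 in all 3 pairs in 5 of 12 comparisons of groups, HBEGF P1 against fresh P1 among them (r = 0.408, 0.24 and 0.36); pairing comes from the replicate numbers in the titles and these correlations. Alternatives were quantile normalization, a filter on dim probe sets, the mean of a gene's probe sets, a trended robust prior, a replicate block, only the arrays compared, and each array left out. The replicate block was fitted over all 7 groups, so it is not a paired test of any single comparison. Leaving out replicate 2 of both HBEGF groups was added after seeing the data. Of 92 list entries 88 were measured, and of 43 marker entries 41.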

Additional observations from a re-analysis of the deposited data

Results flagged for a closer look

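Changes that differed between pairs of groups passed the test of the difference itself in 3 cases. For Dnajb1, the change from fresh to HBEGF cells at P7 minus that at P1 was -1.09 on the log2 scale (limma adjusted p = 0.00351), from changes of -1.45 and -0.36. For Hsph1 the same difference was -1.55 (limma adjusted p = 0.0257), from -0.91 and 0.63. For Cryab, serum P7 against HBEGF P7 minus MD against HBEGF P1 was -1.76 (limma adjusted p = 0.0178), from 1.33 and 3.09. MD cells also differed from HBEGF P1 in isolation, and the Cryab changes differ in starting age. In the culture difference 2 of 6 tested members were called, against 0.816% of all genes. In the serum difference 1 of 6 was called, against 11.3% of all genes. Dnajb1 fell under the minimum fold without fresh P7 replicate 2, and Hsph1 was lost without any of several single arrays. Neither gene's second probe set was called there. For both genes the levels differed between the fresh groups and overlapped between the HBEGF groups. Cryab was lost with only the arrays of its groups fitted.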

How the results depend on the processing

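Of 38 calls of members over 14 comparisons, 7 were lost without some 1 array and 9 under another setting, and none changed direction. Of 167 calls of list genes, 35 were lost without some 1 array and 23 under another setting, and none changed direction. With only the arrays compared, the number of members called was 1 instead of 3 in serum P7 against HBEGF P7, 1 instead of 3 in withdrawn P7 against HBEGF P7, 1 instead of 2 in the difference between culture responses, 0 instead of 1 in serum P7 against MD and 0 instead of 1 in the difference between serum responses; that fit has fewer arrays to estimate the spread. Without replicate 2 of both HBEGF groups, an alternative chosen after seeing the data, no number of members called moved by over 1.5 times. With 1 array left out, members called ranged from 0 to 1 in HBEGF P7 against HBEGF P1 (1 without HBEGF P7 replicate 2), 0 to 1 in serum P7 against MD (0 without MD replicate 1, MD replicate 3 or serum P7 replicate 3), 0 to 2 in the difference between culture responses (0 without fresh P7 replicate 2, 1 without fresh P1 replicate 1 or 2, fresh P7 replicate 3 or HBEGF P1 replicate 2) and 1 to 2 in the difference between serum responses (2 without HBEGF P7 replicate 2). Small changes that were never called turned sign: with 1 array left out, Hspb8 in fresh P7 against fresh P1 ranged from -0.45 to 0.10, and in withdrawn P7 against serum P7 Cryab ranged from -0.45 to 0.17, Dnajb1 from -0.062 to 0.055 and Hspa5 from -0.023 to 0.045; Hspa5 was -0.030 there after quantile normalization. The causes were not tested. The replicate block gave Hspb1 in HBEGF P1 against fresh P1 an adjusted p of 0.0255 and changed no other call of a member. With 3 arrays a group, differences under the intervals given cannot be shown, and dim probe sets understate change.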
